A study of Mus musculus with 2 samples.

Results

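Alveolar type 2 (AT2) cells with the highest combined level of Lcn2 and Lrg1 were examined here in single-cell RNA data from mouse lung. The cells were chosen by a rule on these 2 genes. A barcode entered the base set with at least 500 genes, at most 20% mitochondrial UMIs (unique molecular identifiers, the counted molecules), at least 5000 UMIs and at least 10% of its UMIs from Sftpc, the surfactant protein C gene. The score was the sum of Lcn2 and Lrg1 UMIs over the total UMIs of the cell. The top 5% of base cells in each library were taken, and the lower 50% of the same library served as comparison cells. This gave 319 cells in the library labelled WT and 369 in the library labelled IPKO, 688 in all, out of 13772 base cells and 18938 barcodes. The comparison cells, called low-score cells below, numbered 3196 and 3690.

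The study sorted EpCAM-positive lung cells that were negative for Sca-1 and for CD24, CD31, CD34 and CD45. One library came from male WT mice and 1 from male IP-/- (IPKO) mice, that is, mice lacking the prostaglandin I2 receptor encoded by Ptgir. The labels give no treatment, injury, strain or age, nor how many animals were pooled. With 1 library per label nothing was tested, and genotype and library cannot be told apart. The intervals given are at 95% and reflect counting error alone.

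Lcn2 encodes lipocalin-2, a secreted protein that binds bacterial siderophores and so withholds iron from bacteria. Lrg1 encodes leucine-rich alpha-2-glycoprotein 1, a secreted protein known to modify TGF-beta signalling in vessels. Both are known as acute-phase genes: NF-kB and STAT3 signalling downstream of interleukin-1, interleukin-17 and interleukin-6 family cytokines raises them in epithelium and liver, and AT2 cells take part in lung defence beside making surfactant.

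The sequences before the start sites of the rule genes and of the 3 genes with the highest ratios given further below are shown first, because these genes were high in the same cells. They are 5′ to 3′ on the strand of the gene, from RefSeq with build GRCm38.p6. They cover the 250 bases before the RefSeq start without any base that the GENCODE vM21 annotation counts as UTR. The Lcn2 stretch lies before the RefSeq start but inside the GENCODE vM21 span of the gene (32384633 to 32388252). Capitals mark matches on either strand to GGG, any 5 bases and CC (the kappa-B type motif), TTCNNNGAA (the STAT type) or TTNNGNAA (the C/EBP type).
Lcn2 (chr2:32387798-32387989, minus strand): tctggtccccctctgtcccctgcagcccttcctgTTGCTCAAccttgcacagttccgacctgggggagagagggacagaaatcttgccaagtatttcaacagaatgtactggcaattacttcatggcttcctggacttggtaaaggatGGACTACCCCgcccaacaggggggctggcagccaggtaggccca
Lrg1 (chr17:56122002-56122196, minus strand): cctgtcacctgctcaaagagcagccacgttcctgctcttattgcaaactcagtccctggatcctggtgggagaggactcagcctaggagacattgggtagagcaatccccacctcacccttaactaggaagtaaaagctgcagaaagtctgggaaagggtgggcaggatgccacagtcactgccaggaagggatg
Retnla (chr16:48842359-48842550, plus strand): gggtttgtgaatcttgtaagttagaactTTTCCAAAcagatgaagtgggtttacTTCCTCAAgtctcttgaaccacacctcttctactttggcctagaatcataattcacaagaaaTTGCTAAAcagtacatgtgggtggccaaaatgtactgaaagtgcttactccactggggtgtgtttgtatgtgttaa
Mfsd2a (chr4:122961189-122961438, minus strand): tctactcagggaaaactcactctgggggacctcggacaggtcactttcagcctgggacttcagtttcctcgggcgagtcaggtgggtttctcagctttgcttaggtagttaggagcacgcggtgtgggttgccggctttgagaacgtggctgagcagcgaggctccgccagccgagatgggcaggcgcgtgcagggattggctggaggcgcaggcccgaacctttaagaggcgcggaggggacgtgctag
Itih4 (chr14:30886226-30886475, plus strand): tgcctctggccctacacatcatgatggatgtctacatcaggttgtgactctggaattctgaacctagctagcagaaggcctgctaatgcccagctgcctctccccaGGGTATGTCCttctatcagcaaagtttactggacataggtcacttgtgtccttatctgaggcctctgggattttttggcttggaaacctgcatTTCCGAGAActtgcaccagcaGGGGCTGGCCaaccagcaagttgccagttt
Lcn2 held 1 kappa-B type and 1 C/EBP type match. Lrg1 held 1 kappa-B type match, GGGCTCTTCC, 34 to 25 bases before the RefSeq start, within the bases left out of the printed sequence. Retnla held 3 C/EBP type matches and Mfsd2a none of the 3 motifs. In Itih4, 2 kappa-B type matches and 1 STAT type match were found. These letters are common in such windows. Of 32851 promoters of the same length, 45.8% held the kappa-B type, 7.02% the STAT type and 36.8% the C/EBP type. Of the 16 genes with a promoter in the table among Lcn2, Lrg1 and the 20 genes with the highest ratios, 8 held the kappa-B type, 1 the STAT type and 6 the C/EBP type in at least 1 promoter. Counted per gene in the same way, the shares over all 27025 genes were 48.7%, 8.13% and 40.3%, close to those of the 16 genes.

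The levels of the rule genes chose the cells and are given as a description. Levels are given as CPM, the UMIs of the gene scaled to the summed UMIs of the cells, from a 3' tag assay. Lcn2 (ENSMUSG00000026822, chromosome 2) stood at 2052 CPM in the high-score cells labelled WT against 258 CPM in the low-score cells. In the library labelled IPKO it stood at 1692 and 194 CPM. Lrg1 (ENSMUSG00000037095, chromosome 17) stood at 1655 and 49.1 CPM labelled WT and at 1439 and 37.7 CPM labelled IPKO. The ratio was thus 7.97-fold and 8.71-fold for Lcn2, and 33.7-fold and 38.2-fold for Lrg1. In these ratios the same UMIs chose and measured the cells. When the UMIs of each cell were divided at random into 2 equal parts, with 1 part used for the choice and the other for the level, Lcn2 was 6.19-fold and 6.61-fold higher and Lrg1 25.6-fold and 26.0-fold higher.

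At the edge of the choice there was no gap. The last cell inside labelled WT had a score of 2519 CPM (23 Lcn2 and 22 Lrg1 UMIs of 17862), and the first outside 2511 CPM (43 and 15 of 23094). In the library labelled IPKO these scores were 2098 CPM (24 and 83 UMIs of 51001) and 2093 CPM (12 and 29 of 19589). Within 10% of their own cut lay 174 and 180 cells. The high-score cells were thus the end of a continuous range. The cut was lower in the library labelled IPKO: 3.1% of its base cells (exact Clopper-Pearson interval 2.72% to 3.52%) reached the cut of the library labelled WT, and 7.73% of base cells labelled WT (7.09% to 8.41%) reached the cut labelled IPKO.

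Lcn2 and Lrg1 were joined loosely. Across base cells the Spearman correlation of their shares of UMIs was 0.44 labelled WT (6392 cells) and 0.45 labelled IPKO (7380 cells), with the total UMIs of a cell shared by both measures. A choice on Lcn2 alone gave cells with Lrg1 7.30-fold and 8.97-fold above its low-score cells, and a choice on Lrg1 alone gave Lcn2 2.89-fold and 3.33-fold higher. The top 5% for each gene alone had 79 cells in common of 319 labelled WT (24.8%) and 100 of 369 labelled IPKO (27.1%). Unrelated choices of this size would share about 5%. Low counts limit both measures, since 2221 base cells labelled WT and 2945 labelled IPKO had no Lrg1 UMI. Among the high-score cells, all had an Lcn2 UMI, while 12 labelled WT and 8 labelled IPKO had no Lrg1 UMI. The median share of Lcn2 in the summed UMIs of both genes was 51.5% and 52.3%, against 85.7% and 83.3% over all base cells.

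Sftpc was a condition of entry, so its level, 200115 CPM in high-score and 214063 CPM in low-score cells labelled WT and 205637 and 209720 CPM labelled IPKO, says nothing of the label. The other 9 AT2 markers were all detected in high-score cells. Their log2 ratios of high-score over low-score cells, labelled WT first, included 0.09 and 0.15 for Sftpb, 0.06 and 0.06 for Abca3, which loads lipid into lamellar bodies, and 0.28 and 0.27 for Lamp3, a lamellar body membrane gene. The transcription factor genes Etv5 (-0.29 and -0.28) and Nkx2-1 (-0.17 and -0.25) were the 2 of these 9 that were lower in both libraries. The basal cell markers Krt5, Krt14 and Trp63 had no UMI in the high-score cells of either library. High-score cells were deeper: their median was 21201 UMIs against 17180 labelled WT, and 19704 against 16125 labelled IPKO. The Spearman correlation of score and total UMIs was 0.32 and 0.30. Median mitochondrial shares differed little, at 5.18% and 5.20% labelled WT and 4.02% and 3.80% labelled IPKO. Lrg1 and Lcn2 also occur in other cell types. In the 18 and 70 cells of types that the sort should remove, with at least 5000 UMIs and median depths of 7115 and 6917, an Lcn2 UMI was found in 11.1% and 10.0% after thinning every cell to 5000 UMIs. In high-score cells that share was 99.7% and 98.6%, and in low-score cells 67.6% and 58.5%. For Lrg1, which endothelial cells are known to express, the shares were 33.3% and 8.57% in the other types, 89.7% and 92.1% in high-score cells and 18.3% and 14.8% in low-score cells. Without thinning, Lrg1 was in 96.2% and 97.8% of high-score and 44.6% and 36.8% of low-score cells, and Lcn2 in 100% and in 92.8% and 88.5%.

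Neutrophils, which carry Lcn2 and Lrg1 protein, were looked for by 8 markers. Their sum was 4.13 CPM in high-score and 1.01 CPM in low-score cells labelled WT, with Cxcr2, Ngp and Camp at 0 in the high-score cells. In the library labelled IPKO the sum was 81.2 and 3.65 CPM, with Mmp8 at 0. Of the 604 marker UMIs behind the 81.2 CPM, 533 came from 1 cell and 96.9% from 3 cells. Only 2 high-score cells labelled WT and 4 labelled IPKO had 3 or more neutrophil marker UMIs. Without these cells the values hardly moved: Retnla was at log2 ratios of 3.40 and 3.20, Itih4 at 1.95 and 2.23, and Slpi at 1.17 and 1.44. No T and NK cell marker had a UMI in the high-score cells labelled WT, and 7 such UMIs were found labelled IPKO.

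Among the 4414 genes averaging 20 CPM or more over base cells, without the rule genes, few differed by 1.5-fold or more between high-score and low-score cells. The log2 ratios given from here on are those of high-score over low-score cells, labelled WT first and labelled IPKO second, unless another order is named. Labelled WT, 79 genes were at least 1.5-fold higher (1.79%) and 107 lower (2.42%), 4.21% in all. Labelled IPKO, 50 were higher (1.13%) and 75 lower (1.7%), 2.83% in all. Higher in both libraries were 42 genes (0.952%), lower in both were 42 (0.952%), and 0 went opposite ways by that size. Of the 79 genes higher labelled WT, 76 were higher to any extent labelled IPKO, and of the 107 lower genes all 107 were lower. Of the 50 genes higher labelled IPKO, all 50 were higher labelled WT, and of the 75 lower genes 74 were lower. The share of all 4414 genes with the same sign in both libraries was not counted. The median over all 4414 genes was -0.02 and -0.06.

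**Figure D1:**
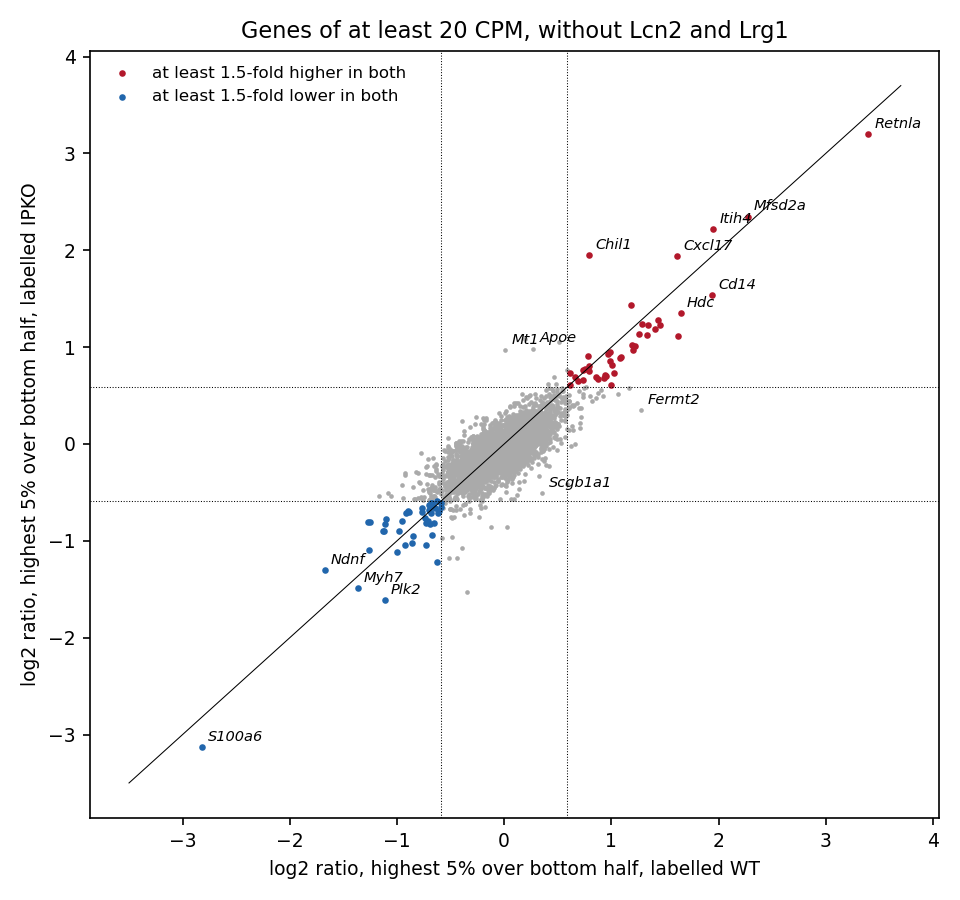
Each point is 1 gene averaging 20 CPM or more, with its log2 ratio of the highest 5% over the lower 50% of the score in the library labelled WT (x axis) and labelled IPKO (y axis); dotted lines mark 1.5-fold and the diagonal marks equal ratios. The 42 genes higher in both (red) reach 3.39 and 3.20 at Retnla, the 42 lower in both (blue) reach -2.82 and -3.13 at S100a6, and Chil1 stands off the diagonal at 0.79 and 1.95.

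Secreted defence and acute-phase genes were the group with the highest median. Of the 14 measured members (at least 5 CPM), 10 were at least 1.5-fold higher in both libraries, none was lower by that size in either, and the median was 0.88 and 1.02 against -0.04 and -0.07 over all genes of at least 5 CPM. At that level 2.25% of all 8498 genes were higher labelled WT, 1.58% labelled IPKO and 1.09% in both. Retnla, which encodes resistin-like molecule alpha, a secreted protein known from type 2 inflammation, had the highest ratio of the 4414 genes. It stood at 108 CPM (exact Poisson interval 101 to 116) in high-score and 10.3 CPM in low-score cells labelled WT, and at 91.2 CPM and 9.96 CPM labelled IPKO. The log2 ratios were 3.39 (3.24 to 3.55) and 3.20 (3.04 to 3.36), and the high-score levels of both libraries lay far above the low-score levels. Retnla was carried by a minority: 33.9% and 31.2% of high-score cells had a UMI against 7.76% and 5.50% of low-score cells, and the 5% of high-score cells with most Retnla held 52.7% and 67.6% of its UMIs.

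Itih4, an inhibitor heavy chain known as an acute-phase protein of the liver, was spread over more cells. It was at 470 CPM in high-score and 122 CPM in low-score cells labelled WT and at 442 and 95.04 CPM labelled IPKO, with log2 ratios of 1.95 (1.89 to 2.01) and 2.22 (2.15 to 2.28). A UMI of Itih4 was found in 92.2% and 89.7% of high-score cells. Per cell, the middle 50% of high-score cells ran from 115 to 650 CPM labelled WT and the middle 50% of low-score cells from 0 to 158, so that single cells of both groups overlapped.

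Il33, an alarmin held in the nucleus of barrier cells, stood at 773 and 252 CPM labelled WT and at 660 and 304 CPM labelled IPKO (1.62 and 1.12). A pair of genes for the sensing of bacterial lipopolysaccharide was higher: Cd14, the co-receptor, at 81.3 and 21.2 CPM labelled WT and 80.2 and 27.7 CPM labelled IPKO (1.94 and 1.54), and Lbp, the binding protein, at 122 and 45.9 CPM and at 105 and 46.1 CPM (1.41 and 1.19). Tlr4, the signalling receptor they serve, stood at 13.9 and 12.8 CPM labelled WT and at 13.3 and 10.1 CPM labelled IPKO (0.11 and 0.39). The antiprotease gene Slpi had ratios of 1.18 and 1.43, and Cxcl17, a chemokine-like gene of mucosal surfaces, 1.62 and 1.94. The haptoglobin gene Hp (0.75 and 0.77) and the complement gene C3 (0.78 and 0.91) were higher by less, and both levels were separated from the low-score cells by far more than counting error. Pglyrp1, a peptidoglycan recognition protein gene, had 0.97 and 0.78 on very unequal levels, 2.80 and 1.43 CPM labelled WT against 39.1 and 22.8 CPM labelled IPKO.

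Other defence genes of AT2 cells stood nearer to the low-score cells. The lysozyme gene Lyz2 had ratios of 0.20 and 0.40 and the other lysozyme gene, Lyz1, 0.66 and 0.00, where UMIs of these near-identical genes may be split uncertainly. Wfdc2 had -0.10 and 0.04, Sftpd 0.27 and 0.29, and the protease gene Ctsh -0.38 and -0.54. Among chemokines and interleukins, 1 of 5 measured genes (Cxcl17) was at least 1.5-fold higher in both, against 1.09% of all genes of at least 5 CPM. Cxcl15, the lung chemokine lungkine, was at 9431 and 6856 CPM labelled WT and 7314 and 5570 CPM labelled IPKO (0.46 and 0.39), and Cxcl16 had -0.44 and -0.46.

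**Figure D2:**
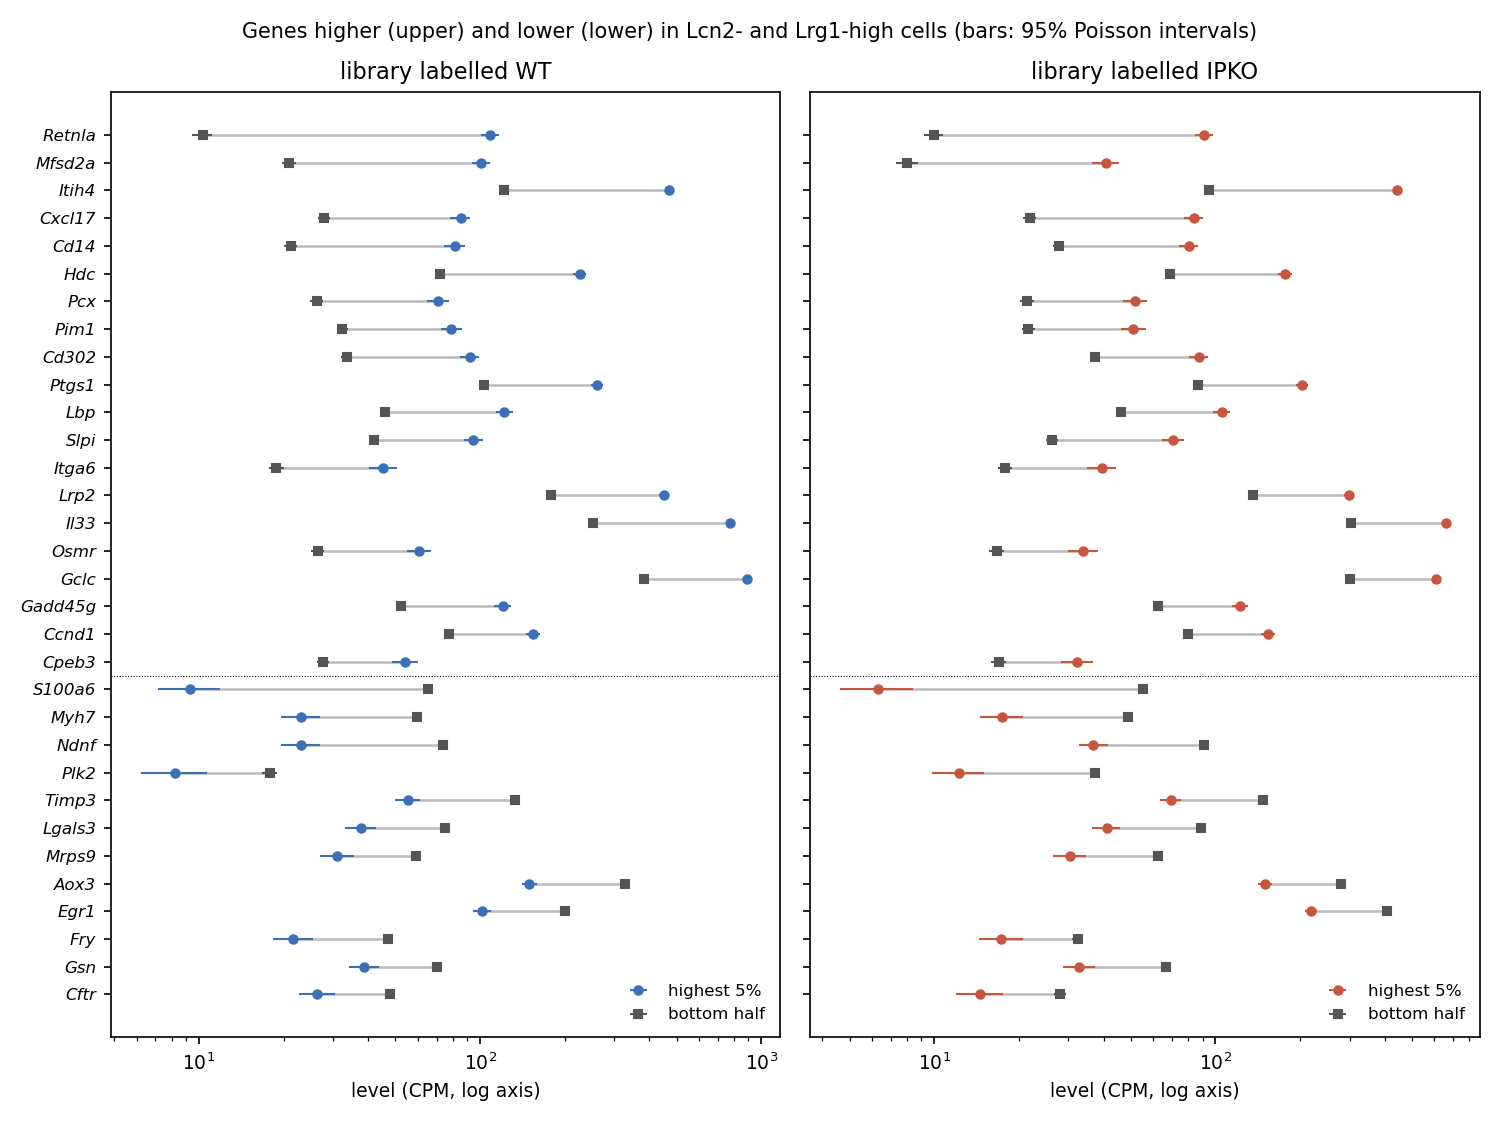
Levels in CPM (log axis) of the 20 genes with the highest ratios (above the dotted line) and the 12 with the lowest (below it), in the highest 5% of the score (circles) and in the lower 50% (squares), with 95% Poisson intervals, for each library. All 20 upper genes lie to the right of their square and all 12 lower genes to the left, from Retnla at 108 against 10.3 CPM labelled WT to S100a6 at 9.28 against 65.5 CPM.

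Signalling genes known to lie upstream of Lcn2 and Lrg1 were examined next, without a test against the secreted products. Of 18 measured genes of the IL-6, JAK and STAT3 pathway, 2 were at least 1.5-fold higher in both libraries and 1 was lower, and the median was 0.06 and 0.06. Over all genes of at least 5 CPM, 1.09% were higher and 1.31% lower in both. The higher ones were Osmr, the oncostatin M receptor (60.6 and 26.4 CPM labelled WT, 33.9 and 16.6 CPM labelled IPKO; 1.2 and 1.02), and Pim1, a kinase gene known as a STAT target (1.29 and 1.24). Il1r1, the interleukin-1 receptor, was lower at 4.86 and 13.6 CPM labelled WT and 6.58 and 14.8 CPM labelled IPKO (-1.48 and -1.17). Stat3 had 0.35 and 0.40, its feedback inhibitor gene Socs3 0.45 and 0.46, the shared receptor gene Il6st -0.03 and 0.02, and Lifr -0.80 and -0.30. Of 15 measured NF-kB pathway and target genes none was past 1.5-fold in both, with a median of -0.05 and -0.06. Bcl3 had 1.09 and 0.50, Sod2 0.72 and 0.37, Nfkbiz -0.49 and -0.68 and Traf1 -0.75 and -0.47.

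Iron handling, the process that lipocalin-2 acts on, was level. None of 11 measured iron genes was past 1.5-fold in either library, and the median was 0.06 and 0.05. Trf, the transferrin gene, had 0.47 and 0.48, and the ferritin heavy chain gene Fth1 0.25 and 0.32. Of the known lipocalin-2 receptors, Lrp2 (megalin) was higher, at 449 and 179 CPM labelled WT and 298 and 136 CPM labelled IPKO (1.33 and 1.13), while Slc22a17 stood at 7.81 and 10.4 CPM and at 6.72 and 9.57 CPM (-0.42 and -0.51). Among 15 genes of TGF-beta receptors and Lrg1 partners, only Id1, a target of BMP signalling, was past 1.5-fold in both (1.08 and 0.67). Of all genes of at least 5 CPM, 1.09% were higher and 1.31% lower in both. The median of the 15 genes was -0.10 and -0.10.

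Genes of metabolism were also named. Mfsd2a, a transporter of lysophosphatidylcholine, stood at 101 and 20.9 CPM labelled WT and at 40.7 and 8.004 CPM labelled IPKO (2.27 and 2.35), a like ratio at unlike levels. Pcx, pyruvate carboxylase, had 1.43 and 1.28, and Gclc, the catalytic subunit of the first step of glutathione synthesis, was at 889 and 382 CPM labelled WT and 611 and 302 CPM labelled IPKO (1.22 and 1.02). In the fatty acid, sterol and phospholipid synthesis list, 3 of 22 measured genes were higher in both: Scd1, the stearoyl-CoA desaturase gene (0.79 and 0.80), Elovl1 (0.86 and 0.69) and Fdps (0.74 and 0.66). None was lower in both, and Pcyt1a, an enzyme gene of phosphatidylcholine synthesis, had -0.47 and -0.68. Over all genes of at least 5 CPM, 1.09% were higher and 1.31% lower in both libraries, for this list and the next 2. Of 17 NRF2 target and antioxidant genes, Gclc and Gpx1 (0.61 and 0.61) were higher in both and Gstm1 (-1.10 and -0.78) lower. Surfactant and AT2 identity genes stayed near level, with 1 of 24, Scd1, higher in both and a median of 0.06 and 0.07. Fasn had 0.60 and 0.51 and Foxa1 -0.38 and -0.44.

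Enzymes of prostaglandin synthesis, the pathway whose receptor the study concerns, were unequal. Ptgs1, the constitutive cyclooxygenase, was at 261 and 103 CPM labelled WT and at 203 and 86.9 CPM labelled IPKO (1.34 and 1.22). Ptges, the inducible prostaglandin E synthase, was at 57.6 and 13.8 CPM and at 34.1 and 7.56 CPM (2.06 and 2.17). Ptgs2, the inducible cyclooxygenase, went the other way, at 20.8 and 26.4 CPM labelled WT (-0.35) and at 12.6 and 36.3 CPM labelled IPKO (-1.52). Of the 6 measured genes of this list, Ptgs1 and Ptges were at least 1.5-fold higher in both, against 1.09% of all genes of at least 5 CPM. Ptgir itself had 0 UMIs in high-score and low-score cells labelled WT, and stood at 2.69 and 2.51 CPM labelled IPKO (log2 ratio 0.10, interval -0.66 to 0.77). Over all base cells it had 0 UMIs labelled WT and 313 labelled IPKO, which goes against the labels. Counts from the 3' end do not show a deletion that lies elsewhere in the gene. Which part was deleted is not stated in the labels used here. The cause of the counts in either library was not tested. Directions are therefore given by library label only. Hdc, the enzyme that makes histamine, was also among the 20 highest (226 and 72.2 CPM labelled WT, 177 and 69.2 CPM labelled IPKO; 1.64 and 1.35).

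The remaining genes of the 20 highest have other roles. They were the C-type lectin gene Cd302 (1.45 and 1.23), the laminin receptor subunit gene Itga6 (1.26 and 1.14), the stress-response gene Gadd45g (1.2 and 0.97), the cyclin gene Ccnd1 (0.99 and 0.95) and Cpeb3, which encodes an RNA-binding protein (0.97 and 0.93). Ccnd1 was at 154 and 77.8 CPM labelled WT and at 153 and 79.6 CPM labelled IPKO, while Ccnd2, another D-type cyclin, was lower (-0.73 and -0.82).

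All 7 measured MHC class II genes lay within 1.5-fold, with a median of 0.20 and 0.16, and the invariant chain gene Cd74 had 0.20 and 0.16. Of 17 MHC class I and antigen processing genes 2 were higher in both, against 1.09% of all genes of at least 5 CPM. They were H2-Q7 (1.80 and 1.49) and H2-Q6 (1.33 and 0.82), near-identical class I genes between which UMIs may be split uncertainly. The median was 0.35 and 0.39, with H2-K1 at 0.47 and 0.69 and B2m at 0.35 and 0.50. Whether the 2 classes differed was not tested. Interferon response genes had a median of 0.13 and 0.28 over 11 genes, and Ifitm3 was the 1 gene higher in both (0.96 and 0.63, against 1.09% of all genes), but labelled IPKO it turned to -0.42 when the score was taken from Lrg1 alone.

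Early response genes were lower in the high-score cells. Of 19 measured AP-1 and immediate early genes, 8 were at least 1.5-fold lower in both libraries and none higher, and the median was -0.58 and -0.67. At 5 CPM or more, 4.04% of all genes were lower labelled WT, 3.13% labelled IPKO and 1.31% in both. Egr1, a zinc finger transcription factor, stood at 102 CPM in high-score and 201 CPM in low-score cells labelled WT and at 218 and 408 CPM labelled IPKO (-0.98 and -0.90). Jun was at 524 and 859 CPM labelled WT and at 930 and 1612 CPM labelled IPKO (-0.71 and -0.80). The high-score cells labelled IPKO thus held more Egr1 and Jun than the low-score cells labelled WT. Fosb had -0.77 and -0.70, Atf3 -0.69 and -0.83, Dusp1, a phosphatase that dampens MAP kinases, -0.68 and -0.94, and Fos -0.44 and -0.68. Without the 20% of base cells with most early response UMIs, an alternative added after seeing the data, 43 genes were higher and 35 lower in both libraries.

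Some genes of the path from AT2 to AT1 cells were lower, and for S100a6, Sprr1a and Lgals3 most UMIs sat in few low-score cells. Of 15 measured transitional-state genes, 4 were lower in both (Areg, Lgals3, S100a6 and Sprr1a), none was higher, and the median was -0.33 and -0.52. S100a6, a calcium-binding protein gene, had the lowest ratio of the 12 lowest genes, at 9.28 and 65.5 CPM labelled WT and 6.32 and 55.3 CPM labelled IPKO (-2.82 and -3.13). In low-score cells, 9.79% and 10.7% had an S100a6 UMI, and the 5% of cells with most of it, 159 and 184 cells, held 95.5% and 93.4% of its UMIs. All Sprr1a UMIs of the low-score cells lay in 42 and 59 cells. Of the Lgals3 UMIs, 60.7% and 61.3% lay in the 5% of low-score cells with most of it. Without thinning, 39.5% and 40.9% of the deeper high-score cells had an Lgals3 UMI, against 36.8% and 37.6% of low-score cells. After thinning every cell to the same total UMIs, the shares were 13.5% and 15.2% in high-score and 17.6% and 19.6% in low-score cells. Lgals3, galectin-3, had -1.002 and -1.11, and the EGF receptor ligand gene Areg -0.62 and -1.22. Without the 20% of base cells highest in transitional genes, Lgals3 turned to 0.45 and 0.21 and Areg labelled WT to 0.39. Krt8, the keratin known from this state, had -0.17 and -0.52. Of 12 measured AT1 genes (against 1.31% of all genes lower in both), Hopx (-0.96 and -0.79), Akap5 (-1.49 and -0.87) and Clic5 (-1.11 and -0.83) were lower in both, Ager, the most abundant of the 8 AT1 markers, had -0.22 and -0.16, and the growth factor gene Vegfa went the other way at 0.59 and 0.30.

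The other genes among the 12 lowest were of mixed function. Timp3, an inhibitor of matrix proteases, was at 55.3 and 133 CPM labelled WT and 69.3 and 148 CPM labelled IPKO (-1.26 and -1.10). Ndnf, a secreted factor gene, was at 23.1 and 73.9 CPM and at 36.8 and 91.1 CPM (-1.67 and -1.31). Myh7, a myosin heavy chain gene better known from heart, was at 23.1 and 59.7 CPM and at 17.5 and 49.0 CPM (-1.37 and -1.49), and 51.4% and 44.4% of low-score cells had a UMI, so it was not confined to a few cells. Cftr, the chloride channel gene, had -0.85 and -0.95, the polo-like kinase gene Plk2 -1.12 and -1.61, the aldehyde oxidase gene Aox3 -1.13 and -0.90, the gelsolin gene Gsn -0.86 and -1.02, the mitochondrial ribosome gene Mrps9 -0.93 and -1.05, and Fry -1.12 and -0.90.

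**Figure D3:**
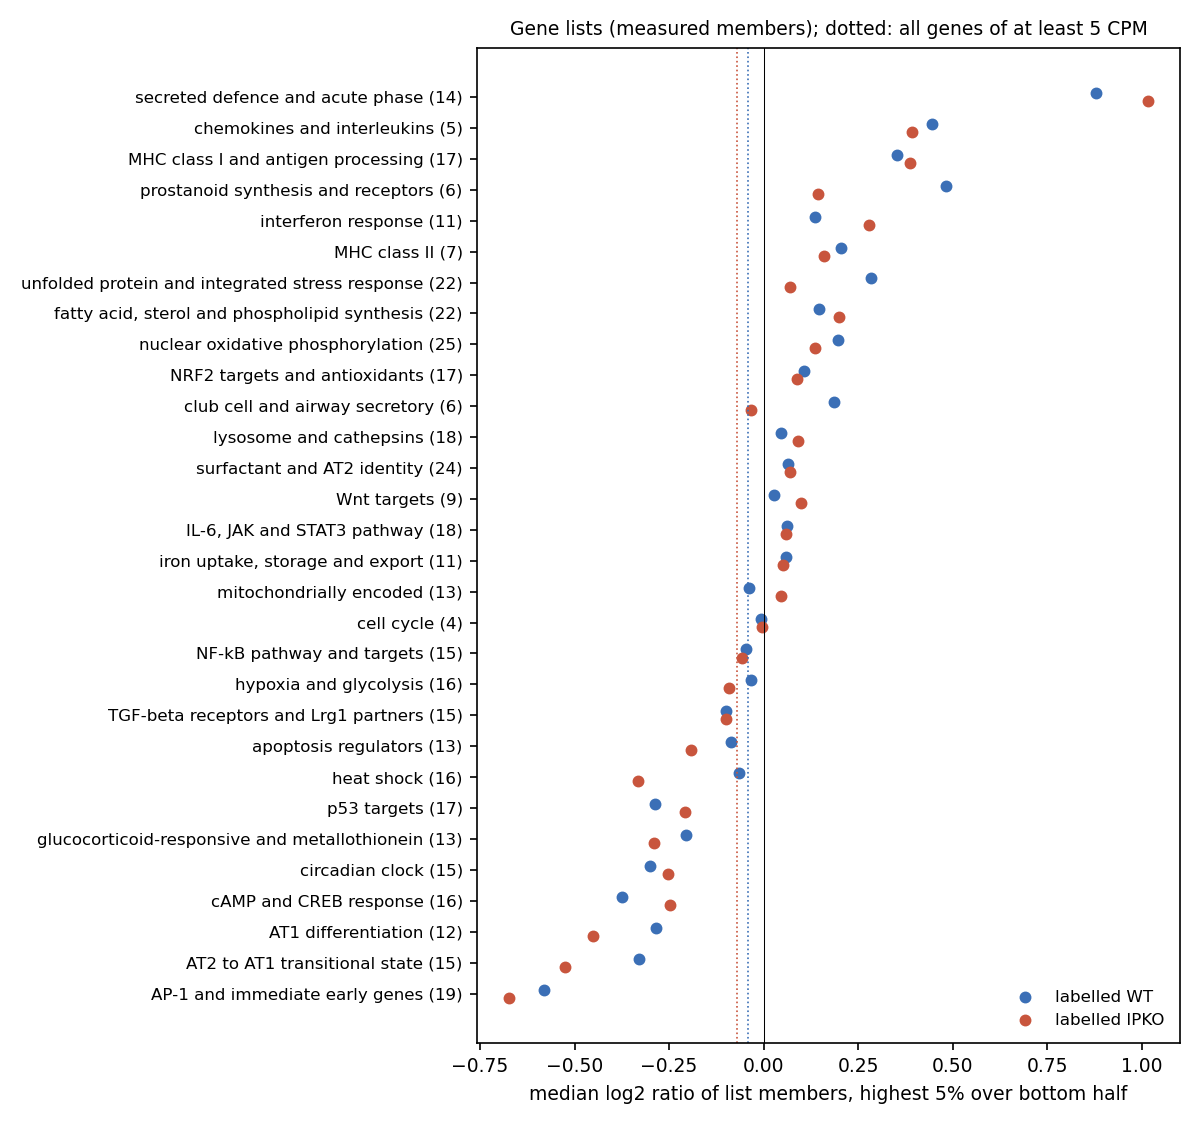
Median log2 ratio of the measured members of each of 30 gene lists (number of members in brackets), the highest 5% over the lower 50% of the score, for the library labelled WT (blue) and IPKO (red), with dotted lines at the median of all genes of at least 5 CPM. Secreted defence genes stand at the top (0.88 and 1.02) and AP-1 and immediate early genes at the bottom (-0.58 and -0.67). The lists were chosen with earlier results of these data known.

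Levels were also followed along the score, as a description, since the named genes were chosen on the ends of this same range. Base cells were placed in 6 bins from the lowest 25% to the top 5%. Itih4 went from 93.8 CPM in the lowest 25% through 147, 198, 283 and 360 CPM to 470 CPM in the top 5% labelled WT, and from 73.9 through 114, 160, 252 and 331 to 442 CPM labelled IPKO. Il33 went from 238 to 773 CPM and from 287 to 660 CPM, and Cxcl17 from 26.3 to 85.2 CPM and from 19.2 to 83.6 CPM. Of the 20 highest genes, 20 had levels that were higher in each bin than in the one before labelled WT and 18 labelled IPKO, where Retnla and Pim1 did not. Among the 12 lowest genes this held downwards for only 5 labelled WT and for 10 labelled IPKO. S100a6 had its level in the 2 lowest bins, at 93.99 and 39.98 CPM labelled WT against 5.63 to 13.3 CPM in the other 4. The median depth moved with the bins too, from 16527 to 21201 UMIs labelled WT and from 15650 to 19704 labelled IPKO. With comparison cells weighted to the depth of the high-score cells, 40 genes were higher and 38 lower in both, of which 38 and 33 were among the 42 and 42.

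**Figure D4:**
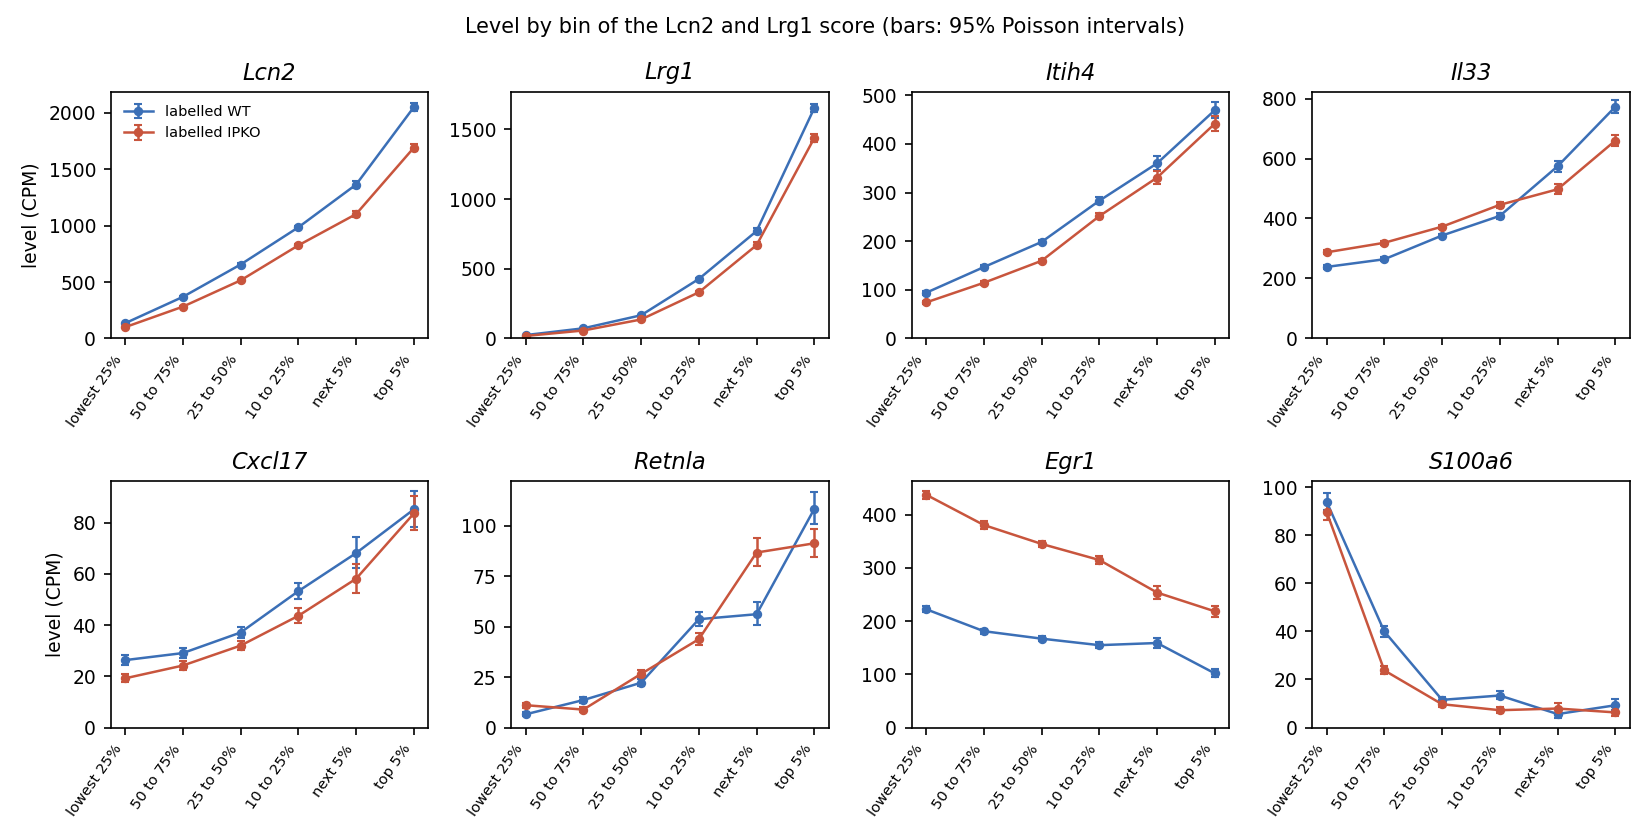
Level in CPM of 8 genes in 6 bins of the score, from the lowest 25% to the top 5% of base cells, for the library labelled WT (blue) and IPKO (red), with 95% Poisson intervals. Lcn2 and Lrg1 set the order; Itih4, Il33 and Cxcl17 climb through all bins, Retnla labelled IPKO is nearly level in the last 2 bins (86.7 and 91.2 CPM), and S100a6 drops after the lowest bins.

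Choosing the cells by 1 gene alone kept the direction of all 20 highest genes in both libraries. The choice on Lcn2 shared 184 of 319 and 213 of 369 cells with the high-score cells, and that on Lrg1 212 and 247. The 20 genes were ranked on those same high-score cells, so kept directions were largely built in. At least 1.5-fold in both were 17 of 20 with a choice on Lcn2 and 19 of 20 with a choice on Lrg1. Of the 12 lowest genes, which also kept their direction, 7 and 12 were at least 1.5-fold lower in both. With Lcn2 alone, Lgals3 labelled WT stood at -0.13 (-0.27 to 0.01) and Plk2 labelled WT at -0.37. Over all genes, 24 were higher in both with Lcn2 alone and 56 with Lrg1 alone, of which 24 and 38 were among the 42. Within the high-score cells, a division at the median share of Lcn2 showed which genes went with either gene. On the Lcn2 side were 159 and 184 cells and on the Lrg1 side 160 and 185, with like depths (medians of 21250 and 21174 UMIs labelled WT, 19633 and 19976 labelled IPKO). In both libraries 12 of 4414 genes (0.272%) were at least 1.5-fold higher on the Lcn2 side and 2 (0.0453%) on the Lrg1 side, beside the rule genes. By library, 47 (1.06%) and 41 (0.929%) were higher on the Lcn2 and the Lrg1 side labelled WT, and 32 (0.725%) and 7 (0.159%) labelled IPKO. Slpi was at 134 CPM on the Lcn2 side and 55.4 CPM on the Lrg1 side labelled WT and at 99.6 and 41.9 CPM labelled IPKO, log2 ratios of Lcn2 side over Lrg1 side of 1.27 and 1.25. The annexin gene Anxa1 (1.06 and 1.13), the NF-kB inhibitor gene Nfkbia (0.75 and 0.99) and Cyp2f2, a cytochrome P450 gene known from club cells (0.89 and 1.12), were on the Lcn2 side. So was S100a6 (2.78 and 3.43), but its 63 and 47 UMIs lay in only 13 and 19 high-score cells. On the Lrg1 side were Lss, a sterol synthesis gene (-0.63 and -0.74), and the kinase gene Jak2 (-0.62 and -0.60). Hdc (-0.91 and -0.51), Osmr (-0.71 and -0.50) and Il33 (-0.69 and -0.47) leaned the same way without passing 1.5-fold in both. Retnla turned between the libraries, at -0.44 and 0.56.

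**Figure D5:**
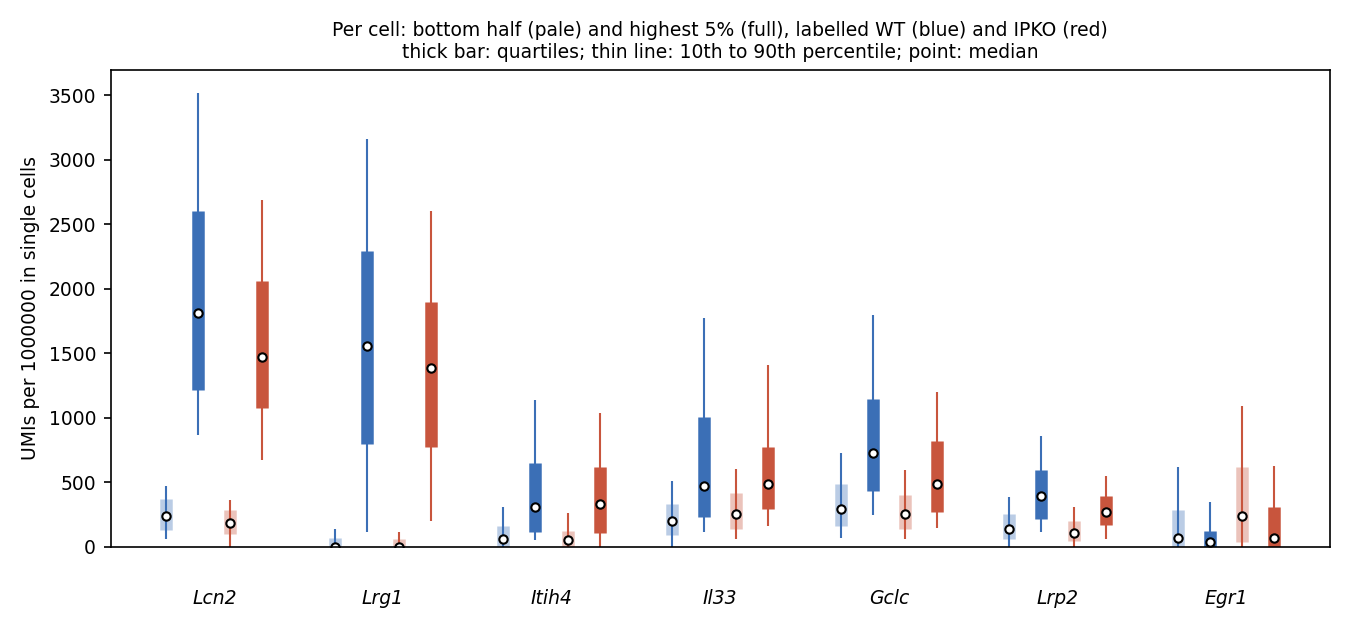
CPM in single cells for 7 genes, in the lower 50% (pale) and the highest 5% (full colour) of the score, labelled WT (blue) and IPKO (red); the thick bar spans the quartiles, the thin line the 10th to 90th percentile and the point is the median. The choice of cells fixed the distance for the rule genes, and even so the lines of Lrg1 labelled WT overlap (10th percentile of 115 in high-score, 90th of 134 in low-score cells), while Itih4, Il33, Gclc, Lrp2 and Egr1 overlap more widely: the median of Itih4 labelled WT is 309 against 60.7.

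The high-score cells were compared with other extremes of the same base cells, each the top 5% of its library. Of the high-score cells, 27.3% labelled WT (exact interval 22.5% to 32.5%) and 24.1% labelled IPKO (19.8% to 28.8%) were also in the top 5% for Chil1, a chitinase-like gene of lung defence, against 0.907% and 1.25% of low-score cells. For Retnla the shares were 16.6% and 18.7% against 2.22% and 2.17%. For MHC class II genes they were 6.27% (3.87% to 9.52%) and 7.05% (4.65% to 10.2%), against 4.10% and 4.15% of low-score cells. For Scgb1a1 they were 5.96% and 6.50% against 3.60% and 4.44%, and for Cdkn1a 5.33% and 4.07% against 5.16% and 5.75%. The intervals for MHC class II, Scgb1a1 and Cdkn1a all include 5%, the share of all base cells, and those for Chil1 and Retnla lie above it. The intervals for MHC class II labelled IPKO and Scgb1a1 labelled WT (3.62% to 9.15%) lay above the low-score share. Fewer high-score cells were in the top 5% of the early response list, 1.88% (0.693% to 4.05%) and 0.813% (0.168% to 2.36%), against 6.85% and 7.10% of low-score cells. The transitional markers gave 1.57% and 2.17% against 7.29% and 7.59%.

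Some genes had unlike ratios in the libraries. Chil1 was at 3599 and 2084 CPM labelled WT (0.79) and at 1196 and 309 CPM labelled IPKO (1.95), so that the ratio was larger where the level was lower. The metallothionein gene Mt1 was at 114 and 114 CPM labelled WT and at 216 and 110 CPM labelled IPKO (0.01 and 0.97), and the apolipoprotein gene Apoe at 502 and 416 CPM and at 920 and 465 CPM (0.27 and 0.98). Ifi27l2a, an interferon-induced gene, had 0.20 and 1.09, on 5.75 and 5.01 CPM against 195 and 91.9 CPM, and Fam21 -0.77 and -0.09. On the other side, the integrin activator gene Fermt2 was at 200 and 82.4 CPM labelled WT and at 105 and 82.3 CPM labelled IPKO (1.28 and 0.35). Adamts1 had 0.59 and -0.41, Il11ra1 0.03 and -0.86 and the club cell secretory gene Scgb1a1 0.35 and -0.51, and Ptgs2 is given above. These 10 genes were named because they differed most, with 1 library on each side, and the difference was not tested.

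Between the libraries, the high-score cells labelled IPKO had 89 genes (2.02%) at least 1.5-fold above the high-score cells labelled WT and 77 (1.74%) below. In low-score cells these numbers were 73 (1.65%) and 71 (1.61%), of which 46 (1.04%) and 47 (1.06%) were shared with the high-score cells. In log2 ratios of IPKO over WT, Lcn2 differed by -0.28 in high-score and -0.41 in low-score cells, and Lrg1 by -0.20 and -0.38. Mfsd2a differed by -1.31 and -1.39, Osmr by -0.84 and -0.67, H2-Q7 by 1.1 and 1.41, and Egr1 by 1.1 and 1.02, with the same sign in both sets of cells. Itih4 was at -0.09 and -0.36, and Retnla at -0.25 and -0.05.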

How the data were processed

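The authors deposited unnormalized UMI counts for each gene in each barcode of 2 libraries, made with Cell Ranger 4.0.0 on build GRCm38 (mm10), per the file headers and the submitters' processing notes. The annotation release used by the authors was not given in the sources used here. In all, the libraries contain 8924 and 10014 barcodes with 127287281 and 137471506 UMIs, and 79 barcode sequences occur in both libraries, 12 among base cells and 0 among high-score cells.

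Everything else was computed here with Python 3.11.15, numpy 2.4.6, scipy 1.17.1 and pandas 2.3.3. UMIs were summed over the cells of a set, 6786097 and 7441359 in the high-score cells, and given as CPM. Levels have exact Poisson, ratios exact conditional binomial and shares exact Clopper-Pearson intervals at 95%, without replicates. UMIs of single cells from 1 library are not replicates, so no test was made. The interval script was tested on simulated data. Doublets were not called, and leaving out the 8% deepest cells or cells with other types' markers were alternatives.

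The members, the 30 gene lists (606 of 607 entries found) and the 12 marker lists were chosen with earlier results of these data known. Named genes were the rule genes, Sftpc, Ptgir, the 20 highest and 12 lowest ratios of the same sign in both libraries at 20 CPM or more (ranked by the ratio nearer 0, without mitochondrial, ribosomal, haemoglobin and unnamed gene models), the 5 and 5 most unlike between libraries, and, from each list, its 2 highest and 2 lowest measured genes. Further list members, the genes of the division within high-score cells and genes given for context (Sftpb, Abca3, Lamp3, Etv5, Nkx2-1, Tlr4, Stat3, Socs3, Il6st, Jun, Fosb, Atf3, Fos, Krt8, Hopx, Cd74, H2-K1, B2m, Lyz1, Lyz2, Sftpd, Cxcl15, C3, Pglyrp1, Fdps) were named after their values were seen. In the lists, members of at least 5 CPM count as measured, and differences from 1.5-fold are counted. Positions come from GENCODE vM21, where 27645 of 27998 features (98.7%) matched by ID. Alternatives numbered 20, with 3 added after seeing the data.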

Additional observations from a re-analysis of the deposited data

Results flagged for a closer look

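Opposite directions in the libraries, each with a counting interval off 0, were looked for only among the 145 genes named by the rules given above. Other genes were not screened for this. Those found were Adamts1, a secreted protease gene (log2 ratio of high-score over low-score cells 0.59 labelled WT and -0.41 labelled IPKO), the club cell gene Scgb1a1 (0.35 and -0.51), Wfdc2, an antiprotease gene (-0.10 and 0.042), and the stress gene Nupr1 (-0.19 and 0.14). With a top 2% as the choice Adamts1 labelled WT turned to -0.11, and with Lcn2 alone as the score Adamts1 labelled IPKO turned to 0.15, so that both libraries then went the same way. With 1 library per label the difference was not tested.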

How the results depend on the processing

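No paired analysis was possible because each label has 1 library. No library could be left out for the same reason, and depth limits genes of few UMIs. The 20 highest genes kept their direction in both libraries under the 20 alternatives that recompute the ratios, and the 12 lowest did except Lgals3. The other 3 alternatives change only the gene floor or the fold. Counts are given as genes higher or lower in both libraries, then labelled WT, then labelled IPKO, where the main counts were 42 and 42, 79 and 107, and 50 and 75. A top 2% gave 81 lower in both, 141 higher and 235 lower labelled WT, and 150 lower labelled IPKO, while a top 10% gave 61 lower labelled WT. Against all other base cells, 25 were higher and 17 lower in both, 43 and 50 labelled WT, and 39 lower labelled IPKO. With Lcn2 alone as the score, 24 and 17 were found in both, 42 and 44 labelled WT, and 47 lower labelled IPKO, and with Lrg1 alone 69 were lower in both. Genes of at least 5 CPM gave 93 and 111 in both, 191 and 343 labelled WT, and 134 and 266 labelled IPKO. At least 50 CPM gave 22 and 25, 39 and 44, and 27 and 41. At least 2-fold gave 17 and 6, 25 and 15, and 20 and 14. Against the middle 50% of the score, an alternative added after seeing the data, 27 were higher and 14 lower in both, 47 and 53 labelled WT, and 37 lower labelled IPKO. Size factors by median of ratios gave 48 higher and 36 lower in both. Turned directions were listed only for named genes with a main ratio of at least 1.5-fold, so smaller ratios that turned are left out. With a top 2%, Adamts1 (-0.11) and Xaf1 (0.33) labelled WT turned, and with Lrg1 alone Ifitm3 labelled IPKO (-0.42). Without the 20% of cells highest in transitional genes (added after seeing the data), Lgals3 (0.45 and 0.21) and Areg labelled WT (0.39) turned. The causes were not tested, apart from the changes of gene floor and fold, which alter the counts by construction.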

Other observations

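Genes of the unfolded protein and integrated stress responses showed median log2 ratios of 0.28 labelled WT and 0.07 labelled IPKO over 22 genes, with the chaperone cofactor gene Sdf2l1 at 0.86 and 0.52, Manf at 0.71 and 0.21, and Trib3 at -0.44 and -0.83. Nuclear oxidative phosphorylation genes were at 0.20 and 0.14, with none of 25 genes past 1.5-fold in either library, and mitochondrially encoded genes at -0.04 and 0.05. Lysosome and cathepsin genes had 0.05 and 0.09, with Npc2 at 0.49 and 0.53 and Ctsc at -0.37 and -0.41. Hypoxia and glycolysis genes had -0.03 and -0.09, Wnt targets 0.03 and 0.10, club cell and airway secretory genes 0.19 and -0.03, and cell cycle genes -0.01 and -0.01 over 4 measured genes.

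Other lists had medians below 0, some of them close to the medians of all genes of at least 5 CPM (-0.04 and -0.07). Heat shock genes had -0.06 and -0.33, with none at least 1.5-fold lower in both, with Hspb1 at 131 and 173 CPM labelled WT and 134 and 283 CPM labelled IPKO (-0.40 and -1.08). cAMP and CREB response genes had -0.38 and -0.25, circadian clock genes -0.30 and -0.25, p53 targets -0.29 and -0.21, glucocorticoid-responsive and metallothionein genes -0.20 and -0.29, and apoptosis regulators -0.09 and -0.19. Mt2 stood at 0.29 and 1.40, beside Mt1 at 0.01 and 0.97, and Cdkn1c at -0.48 and -1.84.

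Marker sums of the remaining cell types were small or level in the high-score cells. Labelled WT first, macrophage and monocyte markers summed to 5.16 and 11.96 CPM (4.23 and 12.6 CPM in low-score cells), endothelial markers to 0.442 and 7.93 CPM (3.48 and 6.43 CPM), mesenchymal markers to 1.18 and 0.538 CPM (2.26 and 0.575 CPM), B cell markers to 24.0 and 28.1 CPM (21.7 and 25.3 CPM) and ciliated cell markers to 47.7 and 62.8 CPM (60.04 and 84.03 CPM). Of the 163 and 209 B cell marker UMIs in high-score cells, 162 and 195 were from Cd79b. The ciliated sums in high-score cells came from Tppp3 and Dynlrb2, as Foxj1 and Ccdc153 had no UMI there. Of the 59 endothelial marker UMIs in high-score cells labelled IPKO, 45 came from 1 cell. Club cell markers summed to 1335 and 316 CPM (1056 and 454 CPM), nearly all from Scgb1a1. The part of these cell types in the results was not tested.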
